A study of Mus musculus with 9 samples.

Results

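Collagens, laminins, matrix proteoglycans and the proteins that bind or cut them were followed across 3 regions of the mouse forebrain. They were taken as every gene of the array whose probe sets carried a single symbol beginning with Col and a digit, with Lama, Lamb, Lamc, Hapln or Adamts, or reading Acan, Bcan, Ncan, Vcan, Tnr, Tnc, Sparc or Sparcl1. This gave 84 genes, read by 166 probe sets, of 18193 genes and 45037 probe sets in all. The rule went by name and used no measured value, though it was chosen with earlier results of these data known.

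The samples came from the BNST (bed nucleus of the stria terminalis), which lies beside the lateral ventricle and belongs to the limbic system, from the NAc (nucleus accumbens) in the ventral striatum, and from the dorsal striatum (dStr). Each was sampled by tissue punches from coronal slices of 300 µm, and 3 samples per region, labelled biological replicates, were each read on 1 Affymetrix Mouse430_2 array after 2 rounds of amplification from 10 ng of total RNA. The labels name no treatment, genotype, strain, age or sex, and all mice were anesthetized with isoflurane before decapitation. Because nothing says whether each sample came from its own animal, the p-values measure the spread between these samples, which may be technical. A punch holds neurons, glia, vessels and any membrane or ventricular lining at its edge, so fewer cells of a type and less RNA per cell cannot be told apart in any value below.

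Collagens are secreted triple helices: the fibrillar types form fibres, type IV forms the sheet of the basement membrane, and fibril-associated types decorate fibres. Laminins are trimers of an alpha, a beta and a gamma chain and line the same basement membranes, which in the brain wrap vessels and underlie the pia. Most of the space between brain cells is instead filled by hyaluronan with lecticans (aggrecan, brevican, neurocan and versican), link proteins that hold both together and tenascins that crosslink them, and these condense around some neurons as perineuronal nets. ADAMTS proteases cut lecticans or process procollagens, while SPARC and its relative Sparcl1 (hevin), both secreted in the brain largely by glia and vessels, act on collagen deposition and synapse formation.

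The promoters of the 3 tested matrix genes with the largest absolute differences between BNST and dStr are shown. Each run holds the 250 bases before the annotated start, from RefSeq on build GRCm38.p6, 5′ to 3′ on the gene's own strand, here the minus strand in each case. Capitals mark matches on either strand to 3 short motifs. These were the TATA box letters TATAAA, the sequence of the so-called CAAT box, CCAAT, and the letters of a GC box, GGGCGG, and no matches overlap one another here.
Sparc, chr11:55420081-55420330: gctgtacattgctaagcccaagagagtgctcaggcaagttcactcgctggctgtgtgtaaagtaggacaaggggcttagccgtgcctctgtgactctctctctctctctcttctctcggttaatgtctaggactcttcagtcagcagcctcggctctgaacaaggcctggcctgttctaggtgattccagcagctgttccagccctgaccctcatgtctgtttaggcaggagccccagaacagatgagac
Adamts20, chr15:94404351-94404600: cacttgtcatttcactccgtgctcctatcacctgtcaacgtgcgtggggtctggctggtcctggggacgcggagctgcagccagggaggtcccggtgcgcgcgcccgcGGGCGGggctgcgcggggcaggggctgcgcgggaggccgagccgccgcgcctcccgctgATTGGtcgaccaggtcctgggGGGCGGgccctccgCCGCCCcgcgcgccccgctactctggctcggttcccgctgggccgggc
Adamts3, chr5:89883335-89883584: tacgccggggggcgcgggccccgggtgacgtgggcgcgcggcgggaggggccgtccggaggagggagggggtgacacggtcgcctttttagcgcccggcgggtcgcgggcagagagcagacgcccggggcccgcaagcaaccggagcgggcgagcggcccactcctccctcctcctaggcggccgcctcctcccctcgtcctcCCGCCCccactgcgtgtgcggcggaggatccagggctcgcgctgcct

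The Sparc window held none of the 3 motifs and 4 CpG dinucleotides, against a median of 6 over all 32851 windows. The Adamts20 window held 32 CpG dinucleotides and 3 copies of GGGCGG, beginning 142, 62 and 48 bases before the start, the last of them on the opposite strand, with 1 CCAAT on the opposite strand 83 bases before it. In the Adamts3 window there were 35 CpG dinucleotides and 1 GGGCGG on the opposite strand, 47 bases before the start. Over all windows of that length TATAAA was found in 12.4%, CCAAT in 33.8% and GGGCGG in 32.7%. Of the 84 genes 58 had a window in the table, 63 windows in total, and the motifs were present in 11, 19 and 38 of those. A match is a string of letters and no evidence of a bound factor, and a window without one says nothing of any factor.

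Probe-set values are linear intensities with a floor of 15. For a probe set to be kept, 3 or more of its 9 values had to exceed the 40th percentile of the array they came from, and a gene was tested on its brightest kept probe set as log2(intensity + 16). All differences, standard errors (SE) and folds are on that log2 scale, which shrinks folds of dim genes, and all p-values are from limma, adjusted by Benjamini-Hochberg over 14208 genes, with a threshold of 0.05. Of the 84 matrix genes 67 were tested, and 17 did not pass the filter. These were Acan, Tnc, Col3a1, Col4a5, Col6a5, Col8a2, Col17a1, Col23a1, Col24a1, Lama1, Lama3, Lamb2, Lamb3, Adamts7, Adamts8, Adamts15 and Adamts19. Their brightest value on any array ran from 16.6 for Col24a1 to 111 for Col23a1, so aggrecan, tenascin-C and the type III fibrillar collagen have no tested value here.

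Median intensity was 93.9 to 102 over the arrays. On each array 2270 to 2698 probe sets were at the floor, among them 11 to 18 of the 166 matrix probe sets. Across all genes, which are not independent replicates, the least alike arrays of 1 region were NAc 1 and NAc 3 (Pearson's r = 0.9091). BNST 1 was closer to NAc 3 (r = 0.9655) than to BNST 2 (0.9339) or BNST 3 (0.9481). Markers of several cell types moved with region. Of all genes tested 4.94% were higher and 9.33% lower in BNST than in dStr. Against NAc 0.760% were higher and 1.48% lower in BNST. The count of every marker list here and below stands beside those shares. All 14 medium spiny neuron markers tested were lower in BNST than in dStr, with summed intensities of 5271 to 11920 in BNST, 20860 to 31320 in NAc and 37600 to 41780 in dStr. Of 12 ependyma and choroid plexus markers 6 were higher in BNST than in either striatal region (sums 2817 to 4822, 1566 to 1769 and 1561 to 1932), and Otx2 stood at the floor on all NAc and dStr arrays. Microglia markers were lower in BNST than in dStr for 6 of 10 (sums 3160 to 4039 in BNST, 3951 to 4842 in NAc and 5428 to 5668 in dStr). No marker of any list stood at the floor on all 9 arrays. The part of these cell types in the results below was not tested.

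Between BNST and dStr 13 of the 67 tested matrix genes differed, 9 higher and 4 lower in BNST. Higher were Sparc, Adamts20, Sparcl1, Col9a3, Col5a3, Adamts6, Hapln4, Col6a3 and Lamc3, and lower were Adamts3, Col19a1, Lama5 and Lamb1. The 13 make 19.4% of the tested members, beside 14.3% of all genes tested, with 4.94% of all genes higher and 9.33% lower in BNST. Quantile normalisation moved the median difference of all genes from -0.06 to 0.06. It gave 14 matrix genes, 12 higher and 2 lower, 11 of them among the 13. Over all genes it called 2431, against 2027 in the main fit. Without BNST 2 the count of matrix genes was 8. The number of all genes called moved between such runs as well. Without BNST 1 it was 2674, beside 15 matrix genes, so a changed count may not be particular to the matrix genes. Sparc, Adamts20, Sparcl1 and Adamts3 were the 4 of the 13 with an absolute log2 difference of 1 or more. The median difference of the 67 was 0.08 against -0.06 for all genes, and 41 of the 67 differences were above 0, beside 43.1% of all genes.

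BNST and NAc differed in 2 matrix genes, Adamts20 (higher in BNST) and Adamts3 (lower), which is 2.99% of the members beside 2.24% of all genes (0.760% higher and 1.48% lower). At an unadjusted p under 0.05 there were 12, of which 7 were higher in BNST, beside 1796 of all 14208 genes. Quantile normalisation gave 6, 5 higher and 1 lower, beside 435 of all genes, against 318 in the main fit. It added Sparc, Sparcl1, Col9a3 and Hapln4 as higher in BNST (adjusted p = 0.0377, 0.0329, 0.0216 and 0.0365). Centring each array on its median gave 4, with Col9a3 and Hapln4 added (adjusted p = 0.0378 and 0.0465), beside 366 of all genes. The count of matrix genes was 1 without BNST 2, BNST 3 or NAc 2, each time through the loss of Adamts3. It was 6 without NAc 3, where Sparc, Sparcl1, Col9a3 and Hapln4 were added. The number of all genes called changed between such runs too. Without BNST 1 it rose from 318 to 617, while the matrix count stayed at 2. NAc and dStr differed in 0 of the 67 by limma, beside 2.05% of all genes (0.950% higher and 1.10% lower in NAc). That count became 1, Col11a1, without BNST 1 or without NAc 1. Without BNST 1 the count of all genes was 389, against 291 with all arrays. An unadjusted p under 0.05 was reached by 10 matrix genes, 8 of them higher in NAc, beside 1860 of all 14208 genes. These pairs share arrays, so the 3 comparisons are not independent of one another.

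In the test of any difference among the 3 regions 12 matrix genes passed (17.9%, beside 10.3% of all genes). They were the 13 without Col5a3 and Lama5, whose adjusted p was 0.0531 and 0.0579, and with Col11a1 at 0.0489. The number passing was 5 without BNST 2 or BNST 3, 7 without dStr 1 or dStr 2 and 6 without dStr 3. The number of all genes passing also changed when an array was left out. Without BNST 1 it was 1854, against 1461 with all arrays, beside 11 matrix genes. The lower counts may therefore not be particular to the matrix genes. When each kept probe set was tested by itself, 2 of the 95 matrix probe sets passed for BNST against NAc (beside 1.81% of all kept probe sets), 14 for BNST against dStr (beside 13.6%) and 1 for NAc against dStr (beside 1.68%). For most members the regions were close: 50 of the 67 differed by less than 0.5 between BNST and dStr, as did 77.9% of all genes. The median SE of a member's difference was 0.17.

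**Figure D1:**
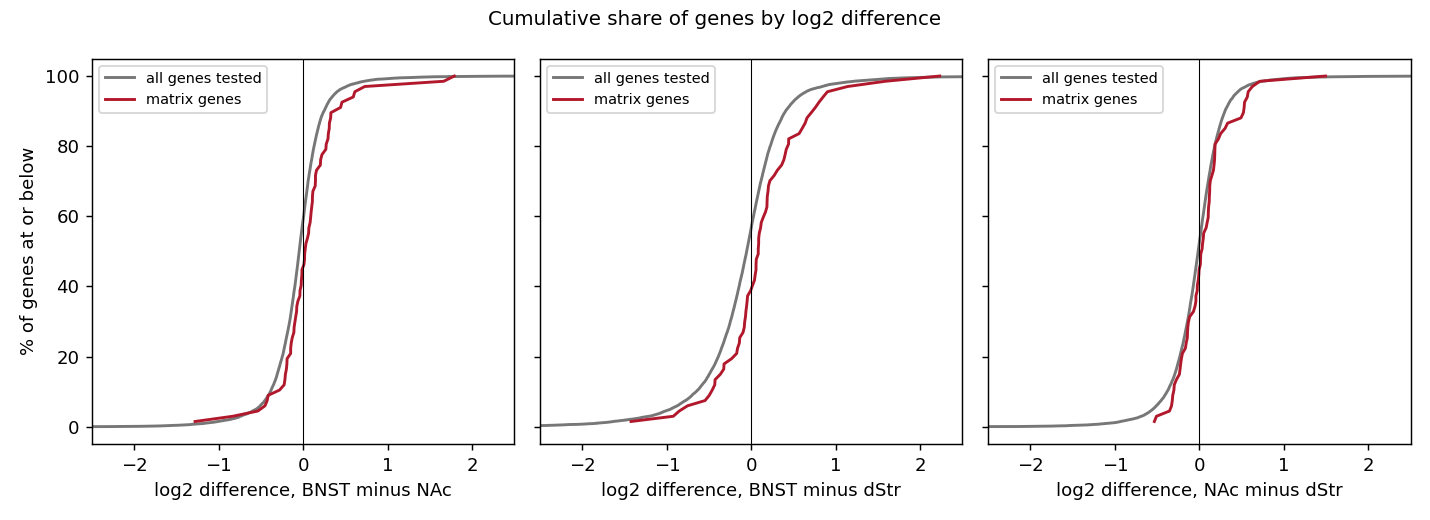
Share of genes, in percent, at or below each log2 difference, for the 67 tested matrix genes and all 14208 genes tested, in the comparisons BNST minus NAc, BNST minus dStr and NAc minus dStr. The median of the matrix genes lies to the right of that of all genes in each panel, at 0.02, 0.08 and 0.03 against -0.05, -0.06 and -0.01.

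Sparc and Sparcl1, the 2 genes of the SPARC family in this set, were both higher in BNST than in dStr. Their median difference of 1.69 was the largest of the 16 role groups. Spock3, a relative of SPARC outside the set, was lower in BNST, as given below. Sparc, which encodes a secreted collagen-binding glycoprotein, read 1992, 1960 and 1687 on the 3 BNST arrays, 314, 451 and 1361 on the NAc arrays and 458, 331 and 382 on the dStr arrays. Every BNST array was above every other array, NAc 3 came close to the BNST values, and the other NAc arrays lay with dStr. The difference from dStr was 2.23 (SE 0.41, 4.69-fold, adjusted p = 0.00525), and that from NAc was 1.66 (adjusted p = 0.0719). Without NAc 3 the difference from NAc was 2.27 (adjusted p = 0.000974).

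A second Sparc probe set had the same order of regions, at 1285, 1351 and 1545 in BNST, 335, 589 and 1174 in NAc and 416, 470 and 562 in dStr. Its difference from dStr was 1.51 (adjusted p = 0.0184 among all kept probe sets). NAc 3 was again the highest NAc array. The remaining, dimmer probe set of the gene, between 78.6 and 118 on all arrays, differed by 0.01 (adjusted p = 0.97).

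Sparcl1, which encodes hevin, an astrocyte protein that promotes excitatory synapses, read 3564, 3791 and 3976 in BNST, 2286, 2192 and 2993 in NAc and 1522, 1720 and 1887 in dStr. The 3 regions did not overlap, and NAc lay in between. BNST exceeded dStr by 1.14 (SE 0.15, 2.20-fold, adjusted p = 0.000879). The steps from BNST to NAc (0.61, adjusted p = 0.0744) and from NAc to dStr (0.53, adjusted p = 0.137) did not pass. Both members kept their calls against dStr without each array in turn and under every other setting tried.

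Astrocyte markers were higher in BNST along with these genes, in 7 of 18 against dStr and 3 of 18 against NAc, with none lower. Their summed intensity was 25560 to 28070 in BNST, 20920 to 21980 in NAc and 19540 to 20580 in dStr. Gfap, the intermediate filament gene of astrocytes, averaged 161 ± 52.8 (SD, n = 3) in BNST and 34.4 ± 8.63 in dStr, a difference of 1.78 (adjusted p = 0.000636). Mlc1 differed by 1.56 (adjusted p = 0.000412), Agt by 1.503 (adjusted p = 0.00164) and Atp1b2 by 1.09 (adjusted p = 0.00448). The part of astrocyte content in the Sparc and Sparcl1 differences was not tested.

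**Figure D2:**
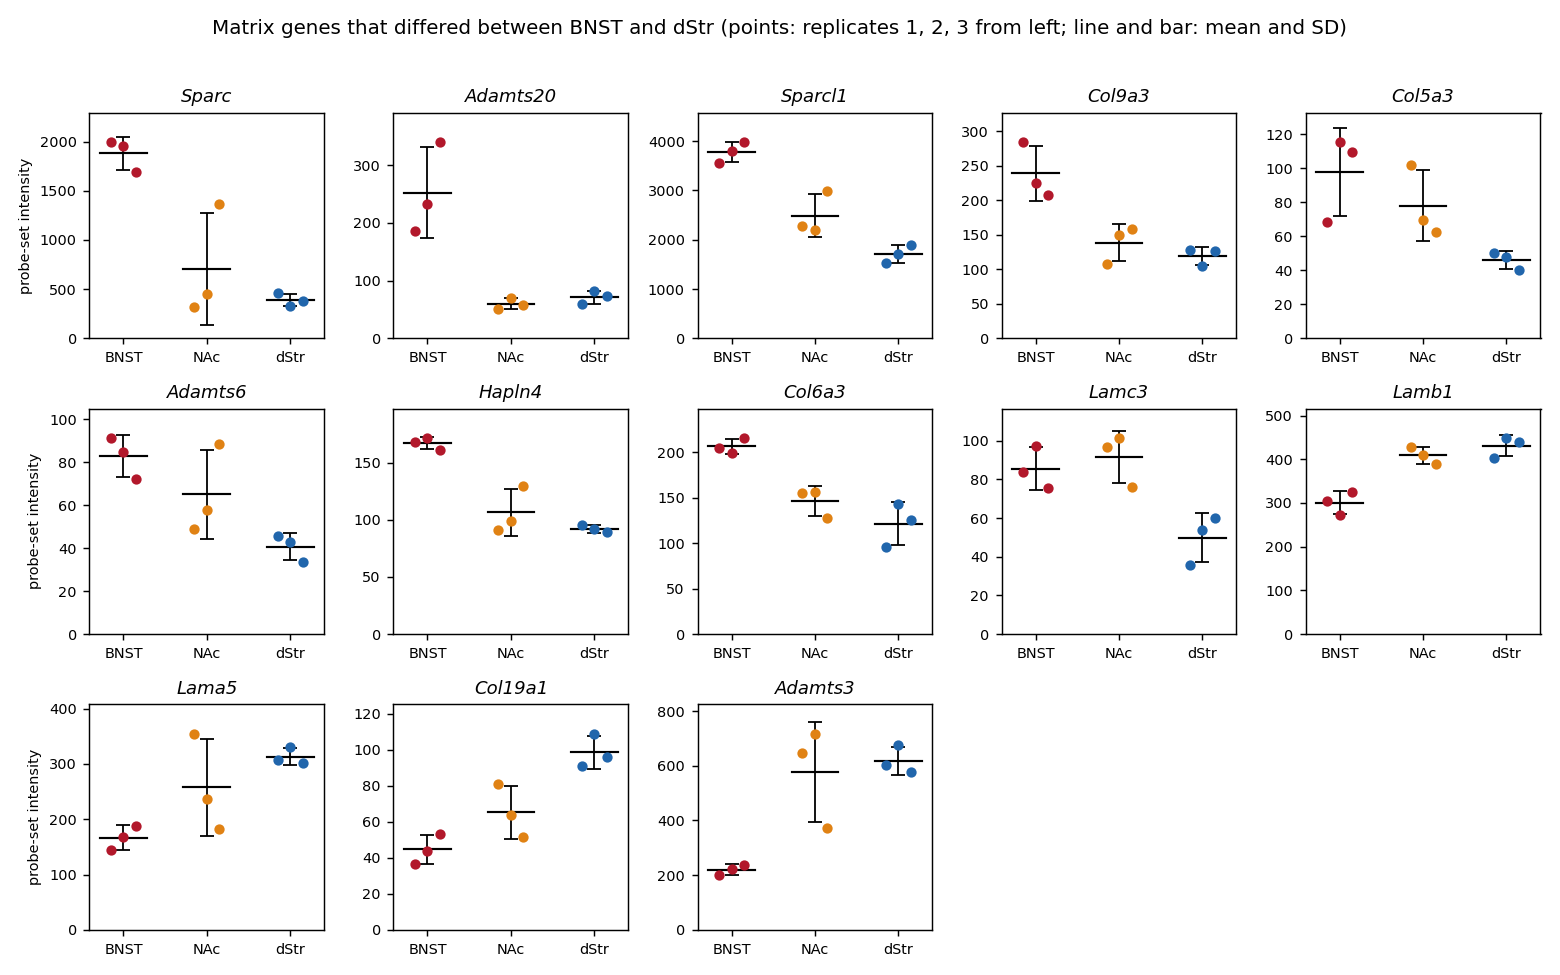
Probe-set intensity (linear axis from 0) on the 3 arrays of each region for the 13 matrix genes that differed between BNST and dStr, as points for replicates 1, 2 and 3 with a line at the mean and a bar of 1 SD. BNST and dStr do not overlap in any panel, and on NAc 3 Sparc read 1361, near the BNST arrays.

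Among the 15 ADAMTS protease genes 11 were tested, and Adamts20 and Adamts6 were higher and Adamts3 lower in BNST than in dStr. Adamts20, whose product cuts versican, read 185, 233 and 340 in BNST, 51.0, 70.5 and 58.6 in NAc and 59.6, 82.1 and 72.6 in dStr. All BNST arrays were above all others, while NAc and dStr overlapped. It exceeded NAc by 1.79 (SE 0.21, 3.45-fold, adjusted p = 0.00235) and dStr by 1.59 (SE 0.21, 3.01-fold, adjusted p = 0.000777). Both calls were kept without each array in turn and under every other setting tried.

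Adamts3, which encodes a procollagen N-propeptidase that also cleaves reelin, went the other way, at 200, 222 and 238 in BNST, 647, 717 and 372 in NAc and 601, 675 and 578 in dStr. The BNST arrays were all below the others, and NAc 3 was the nearest to them. Its difference was -1.42 from dStr (SE 0.22, adjusted p = 0.00182) and -1.28 from NAc (adjusted p = 0.0144). The adjusted p against NAc was 0.0543 without BNST 2, 0.0579 without BNST 3 and 0.0669 without NAc 2. The gene's other kept probe set, at 62.3, 113 and 73.3 in BNST, 84.5, 79.0 and 71.9 in NAc and 33.1, 87.1 and 53.7 in dStr, differed by 0.45 from dStr in the opposite direction (adjusted p = 0.292 among all kept probe sets), and its regions overlapped. With the mean of both sets the adjusted p was 0.129 against dStr and 0.161 against NAc.

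Adamts6 read 91.2, 84.9 and 72.0 in BNST, 48.9, 57.9 and 88.4 in NAc and 45.4, 43.0 and 33.6 in dStr. NAc 3 lay within the BNST values and all dStr arrays lay below both other regions. The difference between BNST and dStr was 0.80 (SE 0.18, adjusted p = 0.016), with an adjusted p of 0.0585 without BNST 2 and 0.0748 without dStr 3. The lectican-cutting proteases Adamts1, Adamts4, Adamts5 and Adamts9 differed between BNST and dStr by 0.18, -0.55, -0.04 and 0.11, none past the test. For Adamts4, at 124, 133 and 94.4 in BNST and 222, 117 and 213 in dStr, the interval of -1.26 to 0.17 left room for a difference over 1, whereas that of Adamts9 was -0.15 to 0.36. Adamts18 differed by 0.60 (adjusted p = 0.0598) and Adamts10 by 0.36 (adjusted p = 0.0699). Adamts12 and Adamts16 differed by -0.33 and -0.17.

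Of the 5 ADAMTS-like genes, whose products share the binding modules of the proteases and lack their catalytic part, none passed in any comparison. All 5 lay above 0 between BNST and dStr, from 0.06 for Adamtsl1 to 0.27 for Adamtsl5. Adamtsl5 read 84.5, 119 and 112 in BNST and 91.4, 92.1 and 69.5 in dStr, and these values overlapped.

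The lecticans did not differ between the regions past the test. Bcan, which encodes brevican, an astrocyte and oligodendrocyte lineage lectican of the adult brain, read 3028, 2771 and 3094 in BNST, 2838, 2697 and 3337 in NAc and 2593, 2816 and 3145 in dStr. All regions overlapped, and the 95% interval of the difference between BNST and dStr was -0.24 to 0.36 around 0.06. The other kept Bcan probe set was dimmer, with means of 574 in BNST, 573 in NAc and 494 in dStr. That set differed by 0.22 between BNST and dStr (adjusted p = 0.492 among all kept probe sets). Ncan (neurocan) was at 1155, 1018 and 1186 in BNST, 1368, 1215 and 1312 in NAc and 1345, 1707 and 1319 in dStr. Its BNST arrays were below all others, with a difference of -0.37 from dStr (interval -0.68 to -0.06, adjusted p = 0.113). All 3 of its kept probe sets were below 0 in that comparison, from -0.42 to -0.12. Vcan (versican) differed by -0.23 (interval -0.59 to 0.12), and tenascin-R (Tnr), which crosslinks lecticans, by 0.19 (interval -0.20 to 0.58).

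Of the 4 link protein genes, all tested, 1 differed between BNST and dStr. Hapln4, a brain link protein found with brevican in perineuronal nets, read 168, 171 and 161 in BNST, 90.6, 98.9 and 130 in NAc and 95.6, 91.7 and 89.0 in dStr. BNST stood above all other arrays, and NAc and dStr overlapped. It exceeded dStr by 0.76 (SE 0.14, 1.69-fold, adjusted p = 0.00513) and NAc by 0.59 (adjusted p = 0.06). Without NAc 3 the latter was 0.72 (adjusted p = 0.0172). Hapln1 was at 62.8, 85.3 and 68.6 in BNST and 104, 120 and 92.5 in dStr, which do not overlap, a difference of -0.46 (adjusted p = 0.0795). Hapln2, a link protein of the nodes of Ranvier, differed by -0.43 (adjusted p = 0.233) and Hapln3 by 0.08. The other kept Hapln2 probe set differed by 0.16 (adjusted p = 0.679 among all kept probe sets). Whether Hapln4 and Hapln1 differ from each other in their response to region was not tested.

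Of 14 genes listed as interneuron and net-bearing neuron markers, Calb2, Kcnc2 and Gad2 were higher in BNST than in dStr, and none was lower past the test. Summed intensities were 9750 to 10840 in BNST, 9765 to 10490 in NAc and 8206 to 9521 in dStr. The median difference of the 14 between BNST and dStr was -0.12, against -0.06 for all genes. Calb2, the calretinin gene, averaged 1255 ± 390 (SD, n = 3) in BNST and 63.5 ± 16.01 in dStr. The list mixes markers of several neuron types, so the 3 genes do not single out net-bearing neurons. The part of any of these neurons in the Hapln4 difference was not tested.

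**Figure D3:**
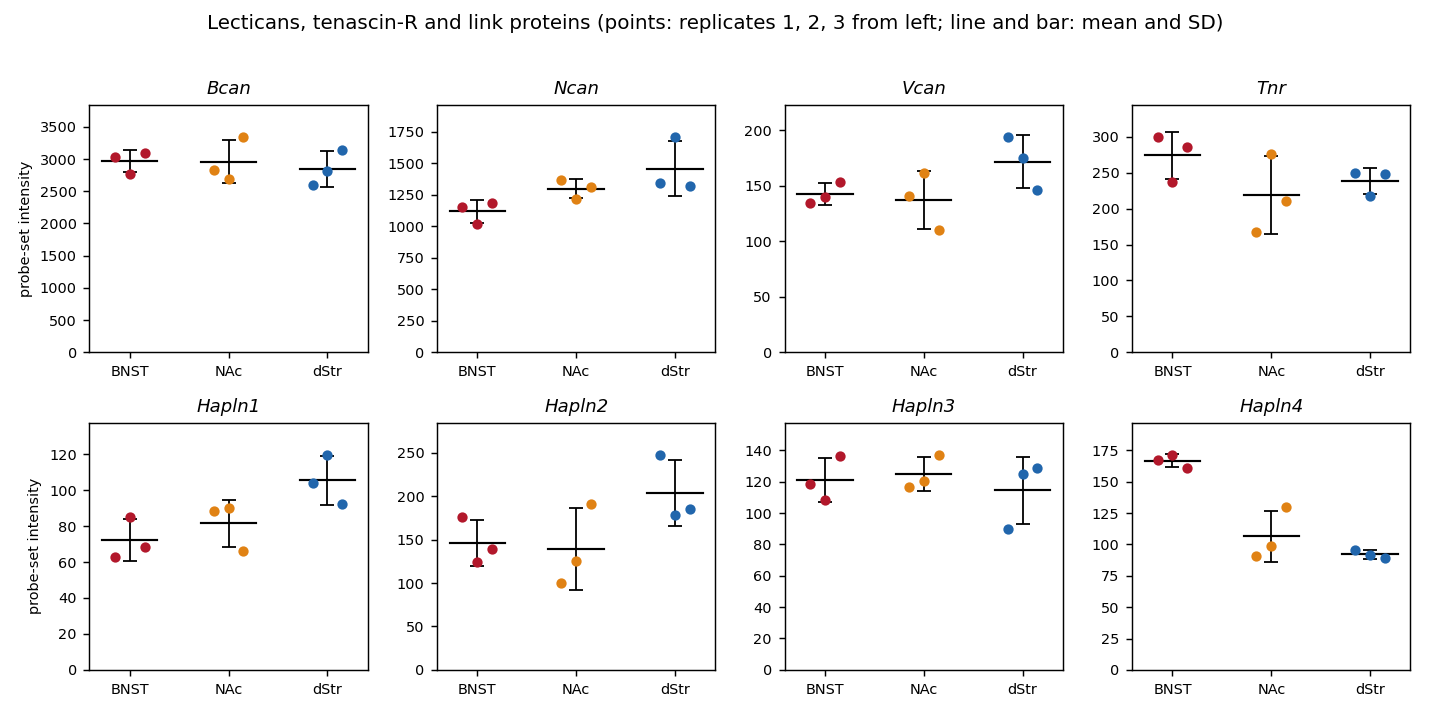
Probe-set intensity (linear axis from 0) of the lectican genes Bcan, Ncan and Vcan, tenascin-R (Tnr) and the 4 link protein genes on the 3 arrays of each region, with the mean and a bar of 1 SD. Hapln4 read 161 to 171 in BNST and 89.0 to 95.6 in dStr, while the Bcan arrays of the 3 regions overlap.

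Fibrillar collagens had 9 of 11 genes tested, and 1 of them, Col5a3, differed between BNST and dStr. Col5a3, an alpha chain of type V collagen, read 68.3, 115 and 110 in BNST, 102, 69.8 and 62.3 in NAc and 50.2, 48.0 and 40.05 in dStr. Both other regions lay above dStr, and BNST and NAc overlapped. The difference of 0.85 (SE 0.21, adjusted p = 0.02) was lost when BNST 2 (adjusted p = 0.0843), BNST 3 (0.0915), dStr 1 (0.0542), dStr 2 (0.0536) or dStr 3 (0.0843) was left out. The type I genes Col1a1 and Col1a2, which make the main fibrils of connective tissue, differed by 0.20 and 0.44, with overlapping regions. Col1a2 was at 326, 439 and 490 in BNST and 383, 231 and 302 in dStr (adjusted p = 0.198).

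Col11a1, a minor fibrillar chain that sets fibril width, was the one tested matrix gene whose NAc mean stood above both other regions by more than 0.8 on the log2 scale. It read 104, 79.5 and 52.6 in BNST, 69.999, 209 and 215 in NAc and 49.1, 37.7 and 41.3 in dStr. NAc 2 and NAc 3 were far above all other arrays, whereas NAc 1 lay within the BNST values. NAc exceeded dStr by 1.49 (SE 0.35, adjusted p = 0.0614), which was 1.96 without NAc 1 (adjusted p = 0.000927) and 1.49 without BNST 1 (adjusted p = 0.05). A second Col11a1 probe set read 47.7, 31.8 and 21.5 in BNST, 85.5, 97.2 and 78.7 in NAc and 14.97, 36.0 and 14.97 in dStr, with 2 dStr arrays at the floor. All its NAc arrays were above all others, and it exceeded dStr by 1.48 (adjusted p = 0.0147 among all kept probe sets). Its partner chain gene Col11a2 differed by -0.76 between BNST and dStr (adjusted p = 0.0738), with a wide BNST spread of 67.0, 35.9 and 30.1, and by -1.01 without BNST 1 (adjusted p = 0.0131).

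Of the other fibrillar genes, Col5a1, Col5a2, Col2a1 and Col27a1 differed between BNST and dStr by 0.19, 0.20, 0.01 and -0.10. Their 95% intervals all lay between -0.36 and 0.63, so a difference of 1 in either direction was outside each of them.

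All 9 fibril-associated collagens were tested, and they went both ways. Col9a3, a chain of type IX collagen, read 284, 226 and 208 in BNST, 108, 149 and 158 in NAc and 129, 105 and 127 in dStr. Its BNST arrays were above all others. The difference was 0.90 from dStr (SE 0.17, 1.87-fold, adjusted p = 0.00617) and 0.73 from NAc (adjusted p = 0.0605, and 0.0484 without NAc 3). The 2 other probe sets of Col9a3 were too dim for the filter and differed by 0.59 and 0.83 in the same direction. The other type IX chains, Col9a1 and Col9a2, differed from dStr by -0.14 and 0.09.

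Col19a1, a collagen that some neurons make, was lower in BNST. It read 36.7, 44.0 and 53.1 in BNST, 80.6, 63.8 and 51.3 in NAc and 91.1, 109 and 95.9 in dStr. The dStr arrays were all above both other regions, and NAc lay in between and overlapped BNST. BNST was below dStr by a difference of -0.92 (SE 0.16, 1.90-fold, adjusted p = 0.00439), a call kept without each array in turn and under the other settings in which it was tested. With the filter at the 60th percentile Col19a1 was too dim to be tested. A second kept probe set differed by -0.22 (adjusted p = 0.398 among all kept probe sets). Col12a1, Col14a1, Col16a1, Col20a1 and Col22a1 lay between -0.32 and 0.05 and none passed.

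Collagen VI, a beaded filament of cell surroundings, had 1 chain that differed. Col6a3 read 204, 199 and 216 in BNST, 155, 156 and 127 in NAc and 95.8, 143 and 126 in dStr. BNST was above all other arrays and NAc overlapped dStr. BNST exceeded dStr by 0.71 (SE 0.15, 1.64-fold, adjusted p = 0.0117), with an adjusted p of 0.0551 without BNST 3 and 0.0514 without dStr 1. Col6a1 and Col6a2, whose chains assemble with it, differed by 0.40 (adjusted p = 0.256) and -0.05 (adjusted p = 0.851). The spread of Col6a1 was wide, at 355, 495 and 566 in BNST, 728, 536 and 414 in NAc and 338, 346 and 358 in dStr. Col6a4 differed by 0.22, Col26a1 by 0.44 (adjusted p = 0.117) and Col7a1, the anchoring fibril gene, by -0.06.

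Of the 6 laminin genes tested 2 were lower and 1 was higher in BNST than in dStr. Lama5, an alpha chain of vascular laminin, read 145, 168 and 189 in BNST, 355, 237 and 182 in NAc and 308, 330 and 302 in dStr. BNST lay below dStr throughout, and NAc spanned both. Its difference of -0.85 (SE 0.21, adjusted p = 0.0209) was lost when BNST 2 (adjusted p = 0.064), dStr 1 (0.0675), dStr 2 (0.0691) or dStr 3 (0.0617) was left out. It was -0.72 after quantile normalisation (adjusted p = 0.0513). The gene's 2 other kept probe sets differed by 0.16 and -0.05, and with the mean of its sets the adjusted p was 0.242.

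Lamb1, the widespread beta chain, read 305, 273 and 324 in BNST, 429, 410 and 390 in NAc and 404, 449 and 441 in dStr, so that BNST was below every other array. The difference from dStr was -0.50 (SE 0.12, adjusted p = 0.0213), with an adjusted p of 0.0903 without BNST 2, 0.0694 without dStr 2, 0.0819 without dStr 3 and 0.121 after quantile normalisation. Against NAc it was -0.43 (adjusted p = 0.115).

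Lamc3, a gamma chain, was at 83.7, 97.4 and 75.3 in BNST, 96.8, 101 and 76.0 in NAc and 35.8, 53.7 and 60.04 in dStr. BNST and NAc overlapped and both stood above dStr. BNST exceeded dStr by 0.64 (SE 0.17, adjusted p = 0.0352), and NAc did so by 0.72 (adjusted p = 0.075). The call against dStr was lost without BNST 1, BNST 2, BNST 3, dStr 1 and dStr 2, at adjusted p of 0.0507, 0.131, 0.0669, 0.134 and 0.0658. The other kept probe set of Lamc3 differed by -0.38 (adjusted p = 0.268 among all kept probe sets), and the mean of the sets by 0.13 (adjusted p = 0.599). Lamc1, the gamma chain of most laminins, differed by 0.41 (adjusted p = 0.259), and Lama2 and Lama4 by 0.04 and -0.01. The other kept Lamc1 probe set differed by -0.25 (adjusted p = 0.307 among all kept probe sets).

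None of the 5 tested type IV collagen genes passed in any comparison. Col4a1 and Col4a2, the pair that makes the common basement membrane network, read 279, 219 and 216 and 227, 206 and 214 in BNST, 137, 255 and 228 and 117, 208 and 210 in NAc, and 229, 238 and 213 and 148, 197 and 171 in dStr. Both had their lowest value on NAc 1 and their highest on BNST 1. Their windows of 300 bases around the start, on opposite strands of chromosome 8 in build GRCm38.p6, share 78 bases, the known arrangement of this pair, which is read outward from a common promoter. They differed between BNST and dStr by 0.06 (interval -0.40 to 0.51) and 0.31 (interval -0.14 to 0.76).

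Col4a3 and Col4a4 encode chains best known from the kidney filter. Col4a4 read 1421, 1584 and 2058 in BNST, 1563, 1188 and 1619 in NAc and 1314, 1065 and 1474 in dStr, with overlap between all regions and a difference of 0.39 from dStr (adjusted p = 0.213). The other probe sets of Col4a4 were too dim for the filter, with highest values of 60.5 and 38.2 on any array. The high reading of this gene therefore rests on its brightest probe set alone. Col4a3 differed by -0.07. Col4a6 was at 134, 97.1 and 93.3 in BNST and 152, 133 and 165 in dStr. The difference was -0.43 (adjusted p = 0.134), and -0.57 without BNST 1 (adjusted p = 0.0453). Its other kept probe set, with means of 122 in BNST and 114 in dStr, differed by 0.09 (adjusted p = 0.753 among all kept probe sets).

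The remaining collagens did not pass. Among the transmembrane collagens Col25a1, which is made by neurons, read 435, 248 and 300 in BNST, 294, 371 and 279 in NAc and 197, 245 and 193 in dStr. Both other regions were above dStr, by 0.57 from BNST (adjusted p = 0.0946, and 0.0176 after quantile normalisation) and 0.53 from NAc (adjusted p = 0.28). Col13a1 differed by -0.16. Differences between BNST and dStr were 0.12 and -0.08 for the multiplexins Col18a1 and Col15a1, which sit in vascular basement membranes, and 0.09 for each of the short-chain collagens Col10a1 and Col8a1.

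**Figure D4:**
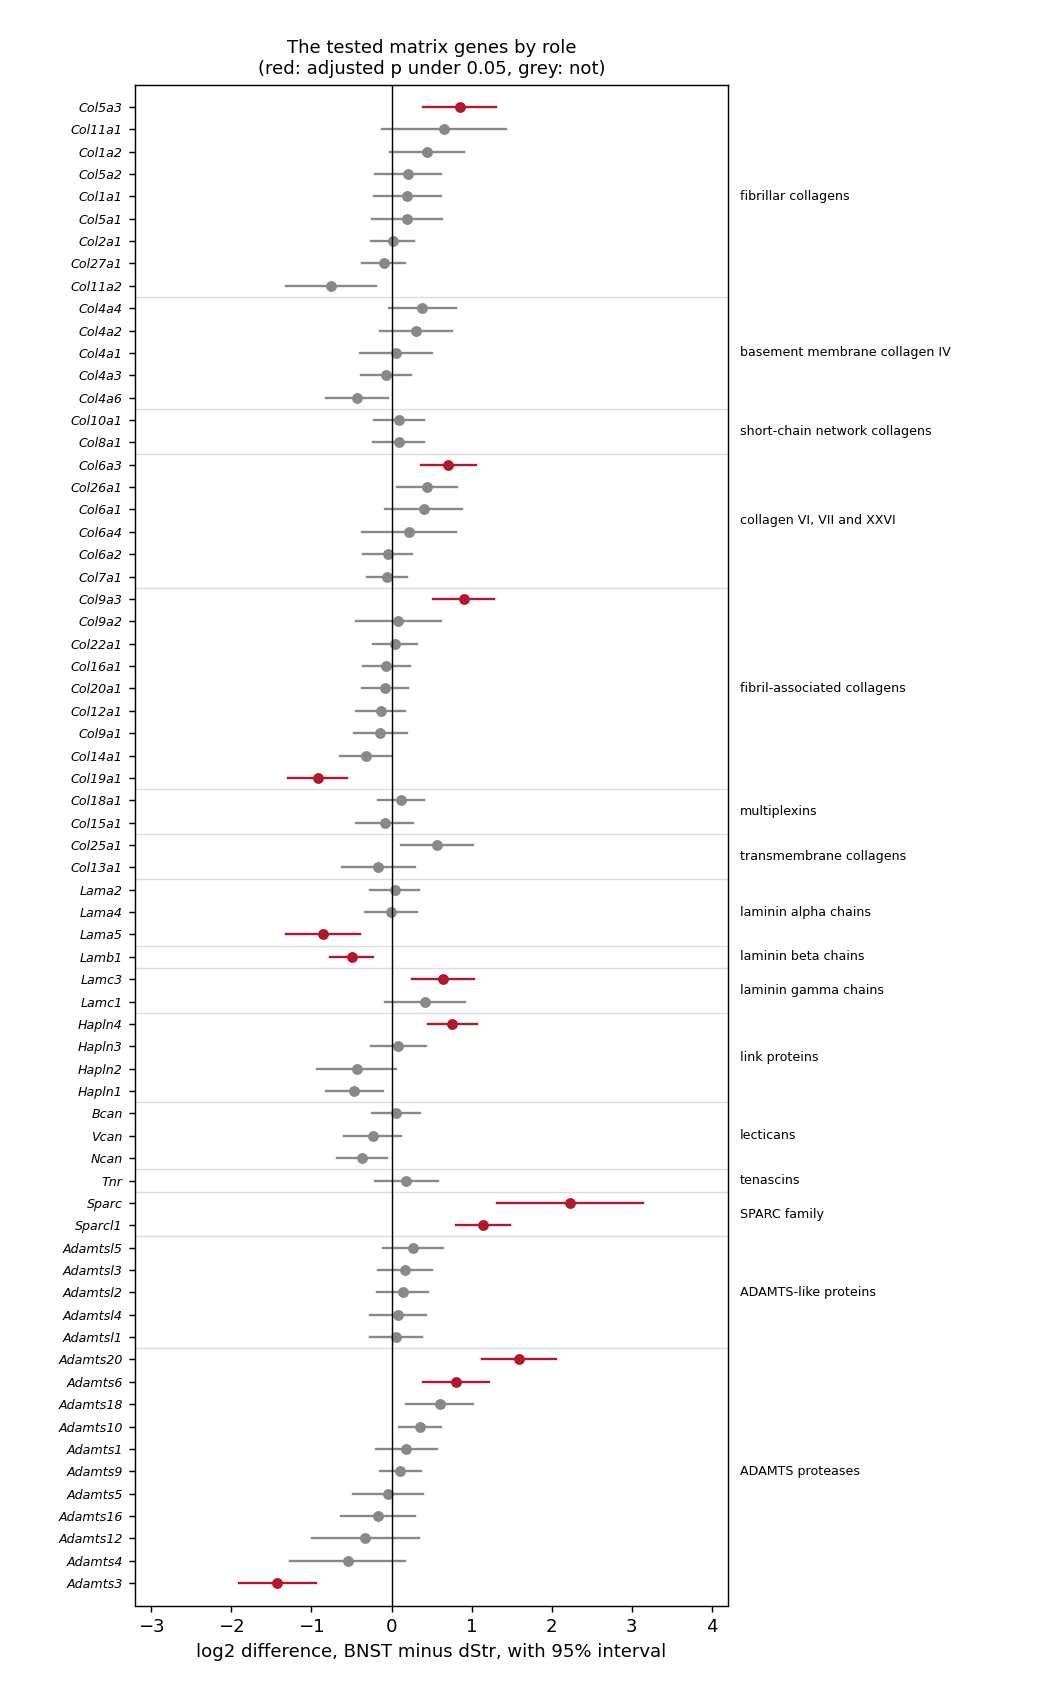
Log2 difference, BNST minus dStr, with its 95% interval for each of the 67 tested matrix genes, grouped by role, with genes at an adjusted p under 0.05 in red. The red points run from 2.23 for Sparc to -1.42 for Adamts3, and among the lecticans, none of which passed, the interval of Bcan spans 0 while that of Ncan runs from -0.68 to -0.06.

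Vessel and fibroblast markers were read beside the basement membrane and collagen genes. None of 12 endothelium markers and none of 12 fibroblast and meningeal markers differed between BNST and dStr. Endothelium markers summed to 3094 to 3342 in BNST, 3158 to 3399 in NAc and 3326 to 4046 in dStr. Fibroblast and meningeal markers summed to 2206 to 2418, 1923 to 2134 and 2018 to 2372. Of 12 pericyte and smooth muscle markers Rgs5 (-0.67, adjusted p = 0.00829), Anpep (-0.61, adjusted p = 0.0233) and Abcc9 (-0.51, adjusted p = 0.0395) were lower in BNST, with sums of 2272 to 2343, 2283 to 2549 and 2826 to 2908. The part of mural cells in the lower Lama5 and Lamb1 values was not tested. Of 12 oligodendrocyte markers none differed between BNST and dStr, and of 9 precursor markers Cacng4 was lower in BNST.

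The place of NAc relative to the other regions was counted for the genes that differed between BNST and dStr. Of the 13 that differed between BNST and dStr 11 had a NAc mean between the 2, with Adamts20 and Lamc3 as the exceptions, which is 84.6% beside 91.7% of the 2027 genes called in that comparison. The NAc mean was nearer to dStr than to BNST in 9 of the 13 (69.2%, beside 51.1%).

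Different probe sets of a gene did not always go the same way. Of the 67 genes 42 had 1 kept probe set and 25 had several, which shared the sign of the difference between BNST and dStr in 12 and not in 13. Among the 13 that differed, Sparc and Col19a1 had further kept sets of the same sign, and Adamts3, Lama5 and Lamc3 had 1 or more of the opposite sign. Sparcl1, Adamts20, Hapln4 and Col6a3 were each read by 1 probe set alone.

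**Figure D5:**
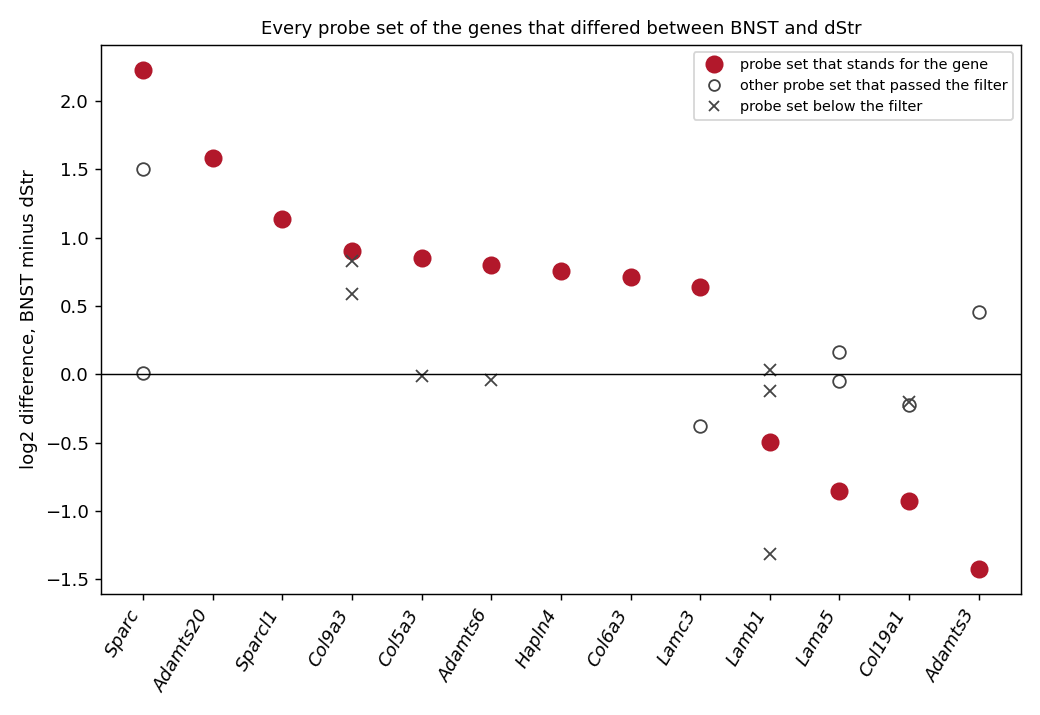
Log2 difference, BNST minus dStr, of every probe set of the 13 matrix genes that differed, with the set that stands for the gene as a filled point, other kept sets as open circles and sets below the filter as crosses. The second Sparc set lies at 1.51, and the second Adamts3 set at 0.45 lies opposite to the first.

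Genes that work with these proteins were counted from fixed lists, and no list was tested as a set. Of all genes tested 14.3% differed between BNST and dStr, 4.94% higher and 9.33% lower in BNST. The share was 2.24% between BNST and NAc and 2.05% between NAc and dStr. The counts below stand beside those shares and are no result about a pathway. In hyaluronan and chondroitin sulfate metabolism, which builds the sugar chains of lecticans, 29 genes were tested, and 3 were lower and 1 higher in BNST than in dStr. Chst15, a chondroitin sulfotransferase gene, averaged 138 ± 58.1 (SD, n = 3) in BNST, 581 ± 298 in NAc and 621 ± 9.27 in dStr, differences of -2.13 from dStr (adjusted p = 0.00302) and -1.91 from NAc (adjusted p = 0.0218). Chsy3, which extends chondroitin chains, differed by -1.67 (adjusted p = 0.00748) and the sulfotransferase gene Chst11 by -1.34 (adjusted p = 0.00156), while Chst7 was higher by 0.89 (adjusted p = 0.0365). Between NAc and dStr Chst11 was lower (-0.99, adjusted p = 0.0316) and Csgalnact1, which starts chondroitin chains, higher (0.97, adjusted p = 0.0191). The median of the list was -0.18 between BNST and dStr, against -0.06 for all genes.

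Of 33 other matrix proteins 4 were higher and 2 lower in BNST than in dStr. Spock3, a relative of SPARC that carries glycosaminoglycan chains, averaged 314 ± 129 (SD, n = 3) in BNST, 714 ± 175 in NAc and 1741 ± 101 in dStr, with differences of -2.49 from dStr (adjusted p = 0.000251) and -1.19 from NAc (adjusted p = 0.0499). Reln, the reelin gene, averaged 938 ± 62.9, 618 ± 214 and 1805 ± 320 and differed by -0.92 between BNST and dStr (adjusted p = 0.0242) and by -1.57 between NAc and dStr (adjusted p = 0.00695). Spon1 (0.83), Mfap2 (0.76), Prelp (0.63) and Ptprz1 (0.60), a receptor phosphatase with a secreted chondroitin sulfate form, were higher in BNST, at adjusted p of 0.0255, 0.00589, 0.0116 and 0.0478.

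Of 39 matrix receptors tested 2 were higher and 2 lower in BNST than in dStr. Sdc4 (1.79, adjusted p = 0.00862) and Gpc4 (0.46, adjusted p = 0.0375), both cell-surface heparan sulfate proteoglycans, were higher, and the integrin chain gene Itgav (-1.04, adjusted p = 0.0127) and Sdc3 (-0.87, adjusted p = 0.0219) were lower. Sdc2 was higher in NAc than in dStr (0.79, adjusted p = 0.0247). Among 13 basement membrane partners Ntn4 was higher (0.61, adjusted p = 0.0362) and Pxdn, which crosslinks type IV collagen, lower (-0.90, adjusted p = 0.0197) in BNST than in dStr.

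Of 24 genes of collagen synthesis and crosslinking, Serpinh1, the collagen chaperone gene, was higher (0.54, adjusted p = 0.0137) and the prolyl hydroxylase gene P4ha1 lower (-0.92, adjusted p = 0.017) in BNST than in dStr. Of 29 matrix proteases and inhibitors outside the ADAMTS family, the metalloprotease inhibitor genes Timp2 (0.59, adjusted p = 0.0171) and Timp1 (0.50, adjusted p = 0.0416) were higher, and Mmp17, a membrane-anchored metalloprotease gene, lower (-1.14, adjusted p = 0.00108). Mmp17 was lower in BNST than in NAc as well (-0.78, adjusted p = 0.0332). Medians of these lists between BNST and dStr were 0.02 for collagen synthesis, 0.05 for proteases and inhibitors, 0.03 for receptors, 0.05 for other matrix proteins and 0.01 for basement membrane partners, against -0.06 for all genes.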

How the data were processed

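RNA from 3 BNST, 3 NAc and 3 dStr samples was read on 9 Affymetrix arrays. The authors deposited 1 table of probe-set intensities on a linear scale with a common floor of 15. How probe sets were summarised and scaled is not given in the sources used here, and that scaling was kept, since array medians differed by at most 0.12 on the log2 scale. With 9 arrays, their number limits the precision. Symbols came from GEO's platform annotation: 34945 probe sets had 1 symbol, 932 several and 9160 none, and an update through Entrez identifiers, possible for 34741, altered 0 symbols.

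Of the 45037 probe sets 29293 passed the filter. For each of 14208 genes the kept probe set brightest by mean log2(intensity + 16) over all arrays was used. Regions were compared 2-sided with limma 3.58.1 in R 4.3.3, in a single model of all 9 arrays with region means, 6 residual degrees of freedom and moderated tests, adjusted by Benjamini-Hochberg over all genes. The procedure was also run on simulated data with noise drawn independently for each gene and array. That run says nothing of noise shared between genes. The matrix genes, their roles, the gene lists and the tests were chosen with earlier results of these data known, so no count of a list is independent support. Named with values were genes called in any test, the 10 with the highest mean, and the largest difference in each role. The other members are given to account for all of them, and up to 4 called genes per list, comparison and direction are given for other lists.

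Results were recomputed with quantile normalisation, with median-centred arrays, without the filter or with it at the 60th percentile, with a gene's probe sets averaged, with pseudocounts of 1 and 64, with a replicate block, without each array in turn, and without BNST 1 and NAc 1 together. Testing each kept probe set by itself was added after the data were seen. The labels do not say whether same-numbered samples came from 1 animal, so the main model used no pairing. Deviations of same-numbered arrays correlated at -0.514 to 0.261, which with 3 arrays per region cannot decide whether they are paired.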

Additional observations from a re-analysis of the deposited data

How the results depend on the processing

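None of the 15 named calls changed sign in the runs that tested its gene, although single probe sets of Adamts3, Lama5 and Lamc3 go the other way. Of the 15, 6 were kept in all 18 runs (Adamts20 in both of its comparisons, and Sparc, Sparcl1, Hapln4 and Col9a3 between BNST and dStr). Without each array in turn, the number of matrix genes called ran from 1 to 6 between BNST and NAc (2 with all arrays), from 8 to 15 between BNST and dStr (13), from 0 to 1 between NAc and dStr (0) and from 5 to 15 among the 3 regions (12). Between BNST and NAc it was 6 after quantile normalisation and 4 after median centring, beside 435 and 366 of all genes (318 in the main fit). Between NAc and dStr it was 1 after quantile normalisation, after median centring, with the mean of the probe sets and with each probe set tested by itself, and the gene was Col11a1 each time. Without BNST 1 and NAc 1 together the counts were 7 between BNST and NAc, 2 between NAc and dStr and 19 among the 3 regions. All 15 named calls were kept there, and Adamts18, Col11a2, Col1a2, Col26a1, Col4a6 and Col6a1 joined between BNST and dStr. Leaving out BNST 1 alone raised the number of all genes called, as given below. These higher counts may therefore not be particular to the matrix genes. With a replicate block 5 passed among the 3 regions. Between BNST and dStr 9 were called, and Col5a3, Lama5, Lamb1 and Lamc3 were lost (adjusted p = 0.0541, 0.0507, 0.0612 and 0.0641). In 3 of 18 checks an array was closest to its own number in another region. With 3 arrays per region this cannot decide whether arrays are paired. Lamc3 was lost with a pseudocount of 64 (adjusted p = 0.0544). Without a filter Adamts10, Col4a5 and Col8a2 joined between BNST and dStr. The filter at the 60th percentile left 44 matrix genes, without Col19a1, Col5a3, Adamts6 and Lamc3, and Col19a1 kept its call in its 17 other runs. The number of all genes called changed between runs too. Without BNST 1 it rose from 318 to 617 between BNST and NAc and from 2027 to 2674 between BNST and dStr. With the replicate block it fell from 2027 to 1480 between BNST and dStr and from 1461 to 953 among the 3 regions. The cause of these changes was not tested. Dim genes near the floor have compressed differences.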
